A study of Caenorhabditis elegans with 4 samples.

Results

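Among the 148 miRNA names of the deposited count table, *miR-77* (cel-mir-77 in the table), *miR-230* (cel-mir-230), *miR-253* (cel-mir-253) and *miR-792* (cel-mir-792) were chosen by their counts in these libraries. Scaled for depth, each was higher in both *pry-1(mu38)* libraries than in both N2 libraries. The values that chose them are the ones described here, so the difference between the strains is given for these 4 miRNAs as a description and without a test. Small RNA was sequenced from whole larvae of *C. elegans* at the first larval stage (L1), synchronized by repeated bleaching, with 2 libraries of the wild type N2 and 2 of the mutant *pry-1(mu38)*. The paper's discussion places this profiling late in L1. It also states that *pry-1* mutants grow more slowly than controls, and for its PCR assays it grew the mutant L1 larvae for longer. The hours of growth before these libraries were made are not stated in the paper. Both strains were grown on standard plates without a treatment. The labels do not say whether the 2 libraries of a strain came from separate cultures, so the spread between them may be technical.

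The product of *pry-1* is an Axin, the scaffold on which β-catenin is marked for removal, and it thereby holds WNT signaling down. The mutant strain carries the allele *mu38*. Small RNA counts cannot show whether *pry-1* itself is altered, so the strain labels were not checked in this way. miRNAs are cut from hairpin precursors by Drosha and Dicer and carried by Argonaute proteins to mRNAs that pair with the seed, the bases near the 5′ end of the mature miRNA. The RNA came from whole animals, in which fewer cells that make a miRNA and less miRNA per cell cannot be told apart.

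The 4 mature sequences are shown because the seed decides which mRNAs a miRNA can pair with and which family it belongs to. They are taken from the study's list of miRNAs, read 5′ to 3′, and the capitals mark the seed, bases 2 to 8.
miR-77: uUCAUCAGgccauagcugucca
miR-230: aCUUGGUCggcgauuuaauauua
miR-253: uUAGUAGGcguugugggaaggg
miR-792: uUGAAAUCucuucaacuuucaga

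No 2 of these seeds are the same. Of the 126 names of the count table with a listed sequence, 42 share their seed with at least 1 other name, but none of the 4 does. The comparison used 1 listed sequence for each name, so the seed of a second arm was not compared. The seeds of *let-7* and *lin-4* are among the names they were compared with. *miR-77*, *miR-253* and *miR-792* start with U, as 77 of the 126 names (61.1%) do, and *miR-230* starts with A. GC content was 50.0% in *miR-77*, 34.8% in *miR-230*, 54.5% in *miR-253* and 30.4% in *miR-792*, with a median of 45.5% over the 126.

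The 4 genes lie apart from each other, on 3 chromosomes of the WBcel235 build. *miR-77* is on chromosome II from 12519268 to 12519367 on the plus strand, between protein-coding genes, 408 bp from *srh-70* and 613 bp from *ceh-99*. *miR-230* is on chromosome X from 5803892 to 5803989 on the plus strand, also between protein-coding genes, 389 bp from F13D11.3. *miR-792* is on chromosome V from 3042092 to 3042181 on the minus strand, 2709 bp from *chpf-2*. None of these 3 genes overlaps another annotated gene. *miR-253* is on chromosome V from 5780510 to 5780616 on the minus strand, inside an intron of 196 bp of the protein-coding gene F44E7.5, which is transcribed from the same strand. The noncoding RNA gene F44E7.15 covers the same place on the opposite strand, and the sources used here do not state whether the counting used the strand. Each of the 4 genes is annotated with 2 mature arms.

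The depth was lower in the mutant, at 3284425 and 4651818 counts per *pry-1(mu38)* library against 6651178 and 6491918 per N2 library. Some runs of rows had a column shifted by up to 3 rows, so the counts of a miRNA were placed by the read total that the study lists for it. This gave a checked row for 88 of the 126 listed names, and 86 miRNAs were compared after identical rows were entered once and low counts were filtered. Levels are given as counts per 1000000 (CPM) normalized with the trimmed mean of M values (TMM), which scales the libraries by the bulk of their miRNAs. *pry-1(mu38)* replicate 2 was high in most of a list of miRNAs that rise during larval development. The 6 miRNAs of that list (*let-7*, *miR-241*, *miR-48*, *miR-84*, and *lin-4* with its relative *miR-237*) summed to 495 and 611 CPM in N2 and to 1086 and 3176 CPM in *pry-1(mu38)* replicates 1 and 2. *miR-237* and *lin-4* made up most of the last sum. *let-7* did not follow, at 7.66 CPM in *pry-1(mu38)* replicate 2 and 9.16 CPM in N2 replicate 1. In *pry-1(mu38)* replicate 1, *miR-237* alone gave 951 of the 1086 CPM, against 364 and 530 CPM in N2. *lin-4* was slightly above N2 there, at 24.9 CPM against 18.0 and 19.7 CPM. The remaining members of the list did not exceed the higher N2 library in that replicate. None of *miR-35* to *miR-42*, the embryonic miRNAs that mark the other end of this stage, had a checked row. The part of developmental stage in the values of the 4 miRNAs was not tested.

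*miR-230* and *miR-253* stood in rows whose counts added up, as deposited, to the listed total. The counts of *miR-77* and *miR-792* did so only when N2 replicate 2 was read 1 row higher. This placement was shared by the nearest checked miRNAs on both sides of *miR-792*, which are *miR-791* and *miR-793*, and by *miR-75* above *miR-77*. *miR-76*, listed under the name of its star strand and lying 2 rows above the row used for *miR-77*, added up to its listed total with this placement too. Below *miR-77*, the nearest checked miRNA, *miR-787*, had the *pry-1(mu38)* columns 1 row higher as well.

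**Figure D1:**
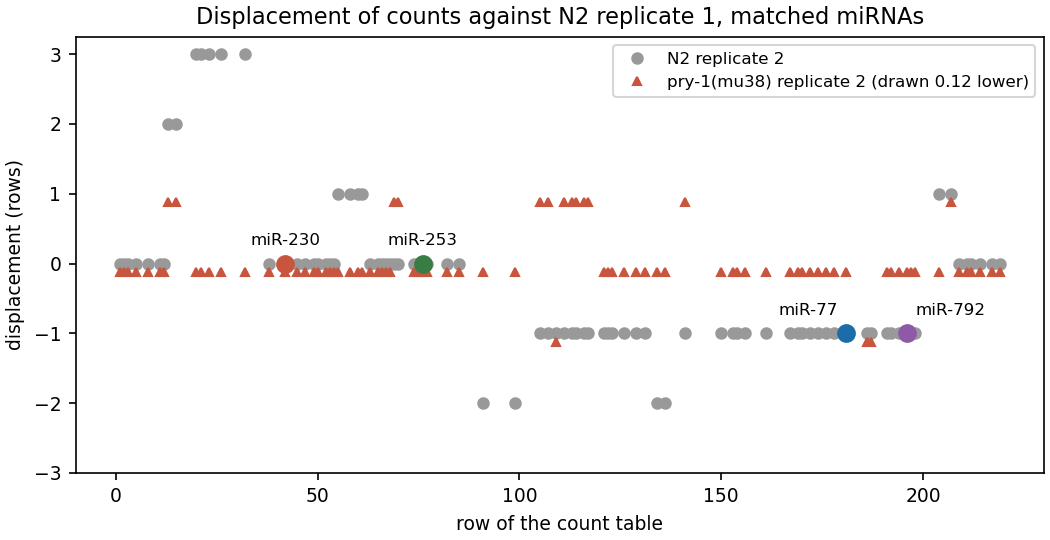
Rows by which the counts of N2 replicate 2 (circles) and *pry-1(mu38)* replicate 2 (triangles) were displaced against N2 replicate 1, for the 88 miRNAs with a checked row, by row of the count table. *miR-230* and *miR-253* lie where no column was displaced, and *miR-77* and *miR-792* lie in the long stretch in which N2 replicate 2 stood 1 row higher.

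*miR-230* (cel-mir-230) was the most abundant of the 4. Replicates 1 and 2 of N2 had 1789 and 3500 counts, and those of the mutant 2067 and 5521, which are 303 and 492 CPM against 652 and 1113 CPM. Both mutant libraries lay above both N2 libraries, but the gap was narrow, and replicate 2 was the higher library in each strain. The means were 398 ± 133 CPM in N2 and 883 ± 326 CPM in the mutant (SD, n = 2 libraries per strain), a 2.22-fold difference or 1.15 ± 0.44 on the log2 scale (fitted value ± its standard error). Without *pry-1(mu38)* replicate 2 the log2 fold change was 0.46. The TMM factors were estimated anew on the remaining libraries, so the library left out and the scaling both enter this value.

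A second row of the table also carried the name of *miR-230*, without an arm label and without a listed total to check it. It held 2108 and 3415 counts in the N2 libraries against 1989 and 4363 in the mutant, or 358 and 480 CPM against 627 and 880 CPM. This row was thus nearly as abundant as the first and showed the same order of the libraries. The ratio of the first row to the second was 0.849 and 1.02 in N2 against 1.04 and 1.27 in the mutant. Both rows count RNA from the same libraries, so the second is no independent check of the first.

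For *miR-253* (cel-mir-253), N2 had 708 and 1019 counts and the mutant 800 and 1316, which are 120 and 143 CPM against 252 and 265 CPM. With TMM, the libraries of a strain lay close together, and the groups were well apart. The means were 132 ± 16.3 CPM in N2 and 259 ± 9.23 CPM in the mutant (SD, n = 2), a 1.97-fold difference or 0.98 ± 0.33 on the log2 scale (SE). Dropping any single library left the difference of *miR-253* between 0.69 and 1.11 on the log2 scale.

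*miR-77* (cel-mir-77) was rare. Its counts were 28 and 10 in the N2 libraries against 37 and 47 in the mutant, or 4.75 and 1.40 CPM against 11.7 and 9.48 CPM. The lower mutant library was 2.00-fold above the higher N2 library, while the N2 libraries were 3.38-fold apart. The means were 3.08 ± 2.37 CPM in N2 and 10.6 ± 1.55 CPM in the mutant (SD, n = 2), a 3.45-fold difference or 1.79 ± 0.60 on the log2 scale (SE). Without N2 replicate 2 the log2 difference was 1.15, and without N2 replicate 1 it was 2.89. As shares of the library total, in CPM without TMM, the Wilson 95% intervals were 2.91 to 6.08 and 0.837 to 2.84 in N2 against 8.17 to 15.5 and 7.60 to 13.4 in the mutant. Such intervals describe the precision of each library and cover counting error only, because amplified reads that carry no molecular identifier cannot be taken as separate molecules.

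The difference of *miR-77* depended on which counts were read as its own. With N2 replicate 2 as deposited, at 48 counts, both mutant libraries still lay above both N2 libraries, and the log2 fold change was 0.60. A second combination of nearby counts also met the listed total, with 28 and 48 counts in N2 and 23 in each *pry-1(mu38)* library. In it the mutant columns were read 1 row higher, as at *miR-787* but not at *miR-75* and *miR-76*. N2 replicate 2 was read in place, unlike at any of these neighbours. Under that reading the groups overlapped, at 4.80 and 6.81 CPM in N2 and 7.04 and 4.69 CPM in the mutant. A further row named *miR-77*, with no listed total, had 19 and 7 counts in N2 and 23 in each mutant library when N2 replicate 2 was again read 1 row higher.

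*miR-792* (cel-mir-792) was also rare, with 22 and 32 counts in the N2 libraries against 23 and 42 in the mutant, or 3.73 and 4.50 CPM against 7.25 and 8.47 CPM. The raw counts of the strains overlapped, and the groups separated only after scaling for depth. The means were 4.11 ± 0.540 CPM in N2 and 7.86 ± 0.859 CPM in the mutant (SD, n = 2), a 1.91-fold difference or 0.93 ± 0.27 on the log2 scale (SE). The libraries of a strain were within 1.20-fold of each other in N2 and 1.17-fold in the mutant. The Wilson 95% intervals of its share of the library total were 2.18 to 5.01 and 3.49 to 6.96 CPM in N2 against 4.67 to 10.5 and 6.68 to 12.2 CPM in the mutant, so counting error alone was wide for *miR-792*.

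The direction of *miR-792* rested on the placement of a single count. In the table as deposited its row held 6774 counts for N2 replicate 2, which belong to *miR-793*, and the log2 fold change of that row was -6.23. Another combination that met the listed total had 22 and 13 counts in the N2 libraries against 40 and 44 in the mutant. It needed 3 different displacements, shared by neither neighbour, and its log2 fold change was 1.91.

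**Figure D2:**
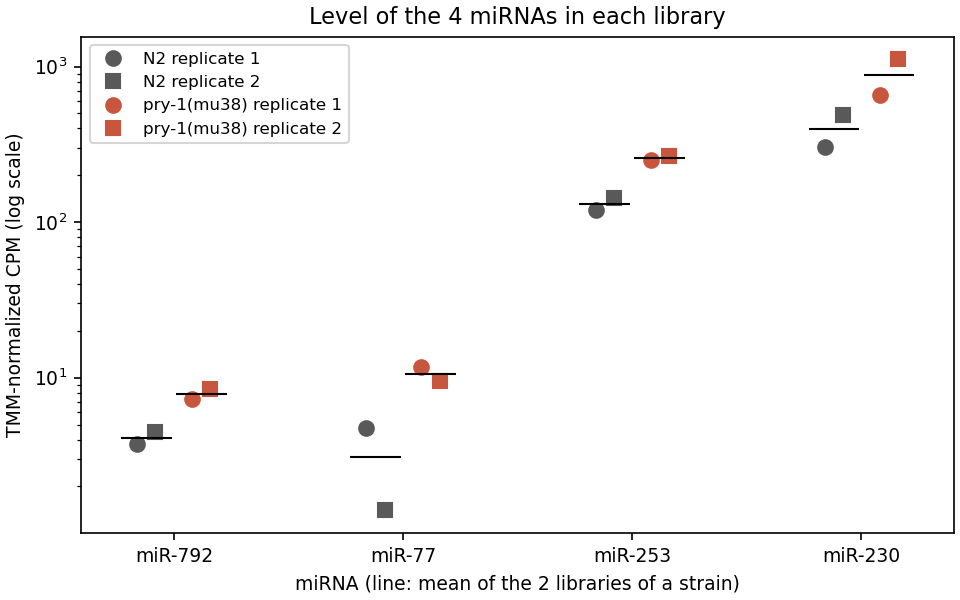
TMM-normalized CPM on a log scale for the 4 miRNAs in each library, with circles for replicate 1 and squares for replicate 2, N2 in grey, *pry-1(mu38)* in red and a line at the mean of each strain. Each miRNA has both red symbols above both grey symbols, from 1.40 CPM for *miR-77* in N2 replicate 2 to 1113 CPM for *miR-230* in *pry-1(mu38)* replicate 2.

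The order of the levels was *miR-230*, *miR-253* and then the 2 rare miRNAs, in every library. *miR-77* and *miR-792* differed from each other in N2 by less than the spread of *miR-77*, at 3.08 ± 2.37 and 4.11 ± 0.540 CPM (SD, n = 2). *miR-792* was the lower in both mutant libraries. Over the 86 miRNAs compared, *miR-230* took rank 28, *miR-253* rank 42, *miR-77* rank 72 and *miR-792* rank 77 by mean level in the mutant.

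All 4 had both mutant libraries above both N2 libraries, as the rule required. The same held for 23 of the 86 miRNAs (26.7%), so 19 others had this order too. The reverse order, with both mutant libraries below both N2 libraries, held for 16 of the 86 (18.6%). By the width of the gap, the lower mutant library over the higher N2 library, *miR-77* ranked 1, *miR-253* ranked 3, *miR-792* ranked 4 and *miR-230* ranked 7 among the 23. Just inside the threshold of 1 were *miR-4810*, with a ratio of 1.01, and *miR-72*, with 1.02. Just outside were *miR-359*, at 0.997, and *miR-228*, at 0.984. Of the 23, 5 were at least 2-fold higher in the fitted values, among them *miR-77* and *miR-230*. The other 3 were *lin-4* at 20.4-fold, *miR-237* at 3.14-fold and *miR-794* at 2.08-fold. The paper lists *lin-4* and *miR-237* among the miRNAs it found upregulated in this mutant, but none of the 4 described here. The value of *lin-4* rests on *pry-1(mu38)* replicate 2, at 745 CPM, while replicate 1, at 24.9 CPM, was 1.27-fold above the higher N2 library.

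**Figure D3:**
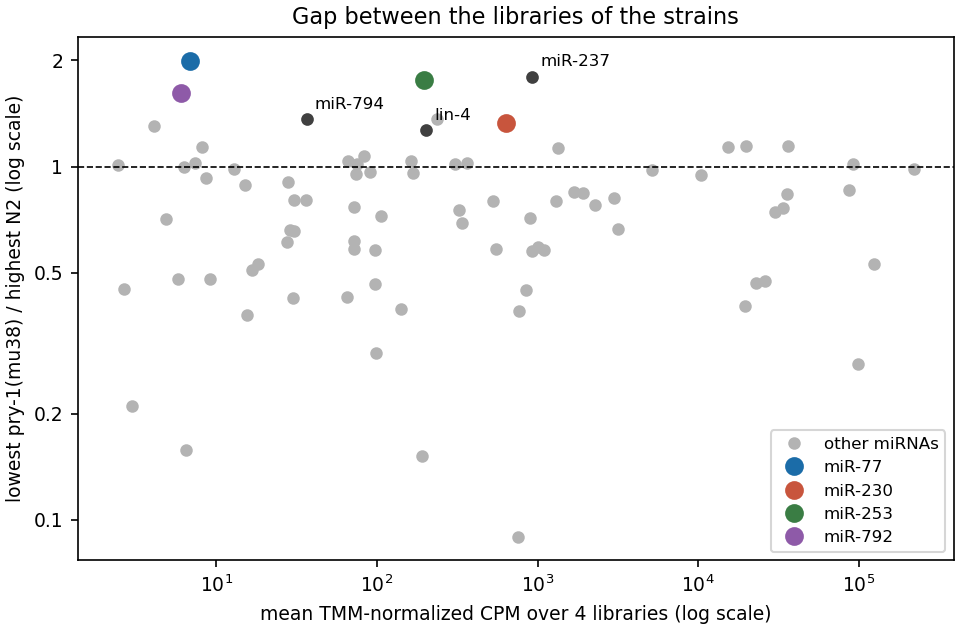
The lower *pry-1(mu38)* library divided by the higher N2 library, on a log scale, against the mean TMM-normalized CPM over 4 libraries, for each miRNA compared except *miR-2209c*, which had 0 counts in the mutant. Points above the dashed line at 1 have both mutant libraries above both N2 libraries, and the 4 miRNAs lie between 1.33 for *miR-230* and 2.00 for *miR-77*.

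With TMM, the mutant libraries were closer to each other for *miR-253*, *miR-792* and *miR-77* than for most miRNAs. *pry-1(mu38)* replicate 2 was 1.71-fold above replicate 1 for *miR-230*, 1.17-fold above it for *miR-792* and 1.05-fold above it for *miR-253*, and the 2 libraries were 1.23-fold apart in the other direction for *miR-77*. The median distance over the 85 miRNAs with counts in every library was 1.44-fold. By contrast, replicate 2 was 29.9-fold above replicate 1 for *lin-4*, 15.3-fold for *miR-241* and 1.95-fold for *miR-237*. In N2, *miR-77* was among the least repeatable miRNAs, and only 2 of the 85, itself included, were at least as far apart. *miR-230* was 1.62-fold apart in N2, *miR-253* 1.19-fold and *miR-792* 1.20-fold, against a median of 1.24-fold. These distances bear on the same libraries that chose the 4 miRNAs and are given as a description.

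**Figure D4:**
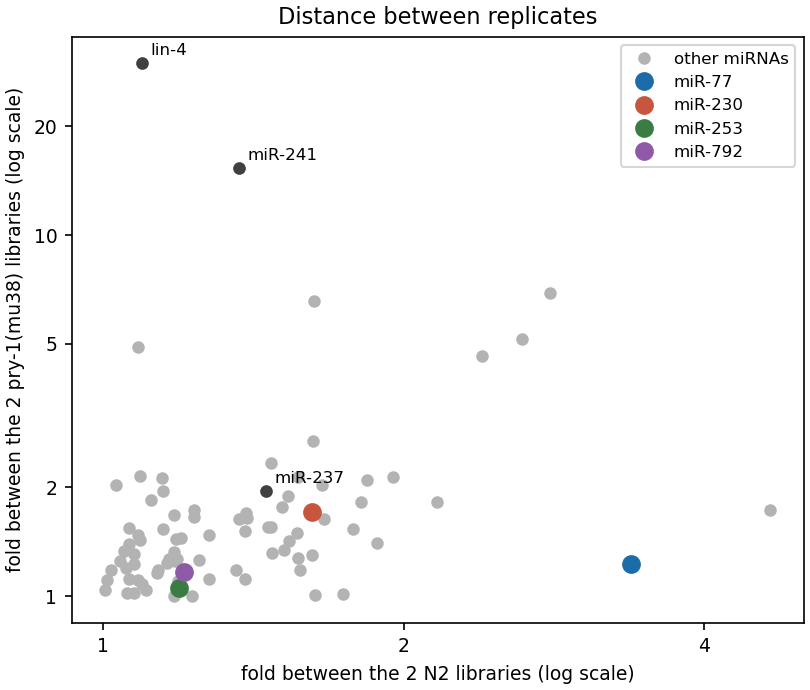
Fold distance between the *pry-1(mu38)* libraries against that between the N2 libraries, both on log scales, for the 85 miRNAs with counts in every library. *miR-253* and *miR-792* lie near 1 on both axes, *miR-77* lies far to the right at 3.38, and *lin-4* lies at the top at 29.9.

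*miR-230* and *miR-792* each have 1 miRNA with a checked row within 10 kb, and neither of these had both mutant libraries above both N2 libraries. *miR-791* is 5359 bp from *miR-230* on the same strand of chromosome X, and it had 99.6 and 63.5 CPM in N2 against 42.6 and 54.5 CPM in the mutant, a fitted difference of -0.75 ± 0.41 on the log2 scale (SE). Its mutant libraries lay below its N2 libraries, opposite to *miR-230*. *miR-1821* is 348 bp from *miR-792* on the same strand of chromosome V, and it had 29.5 and 31.3 CPM in N2 against 25.2 and 35.1 CPM in the mutant, a fitted difference of -0.01 ± 0.35 on the log2 scale (SE). Its groups overlapped. No miRNA with a checked row lies within 10 kb of *miR-77* or *miR-253*.

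Likeness was measured as the distance between log2(CPM + 1) values over the 4 libraries, each centred on the mean of N2, and is a description of 4 libraries. *miR-253* and *miR-792* were nearest to each other, at a distance of 0.27. *miR-230* was nearest to *miR-794*, at 0.23, which had 19.2 and 28.2 CPM in N2 and 38.5 and 59.9 CPM in the mutant. *miR-249* was the next nearest to *miR-792*, at 0.49, and *miR-60* to *miR-230*, at 0.57. For *miR-253* the next was *miR-794*, at 0.44. *miR-77* was like no other miRNA to this degree, and its nearest were *miR-253*, at 1.44, and *miR-249*, at 1.51.

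The scaling of the libraries changed the size of the difference little and the gap more. Over 7 ways to scale or filter the matched rows, the fold difference ranged from 3.10 to 3.69 for *miR-77*, from 2.00 to 2.25 for *miR-230*, from 1.74 to 2.00 for *miR-253* and from 1.70 to 1.95 for *miR-792*. *miR-77*, *miR-253* and *miR-792* had both mutant libraries above both N2 libraries in all 7. *miR-230* had them in 6, and with upper-quartile factors *pry-1(mu38)* replicate 1, at 546 CPM, fell just under N2 replicate 2, at 552 CPM. The number of miRNAs with this order ranged from 12 with upper-quartile factors to 23 with TMM. The median log2 fold change of all miRNAs compared was 0.08 with TMM and between -0.09 and 0.13 over the 7.

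**Figure D5:**
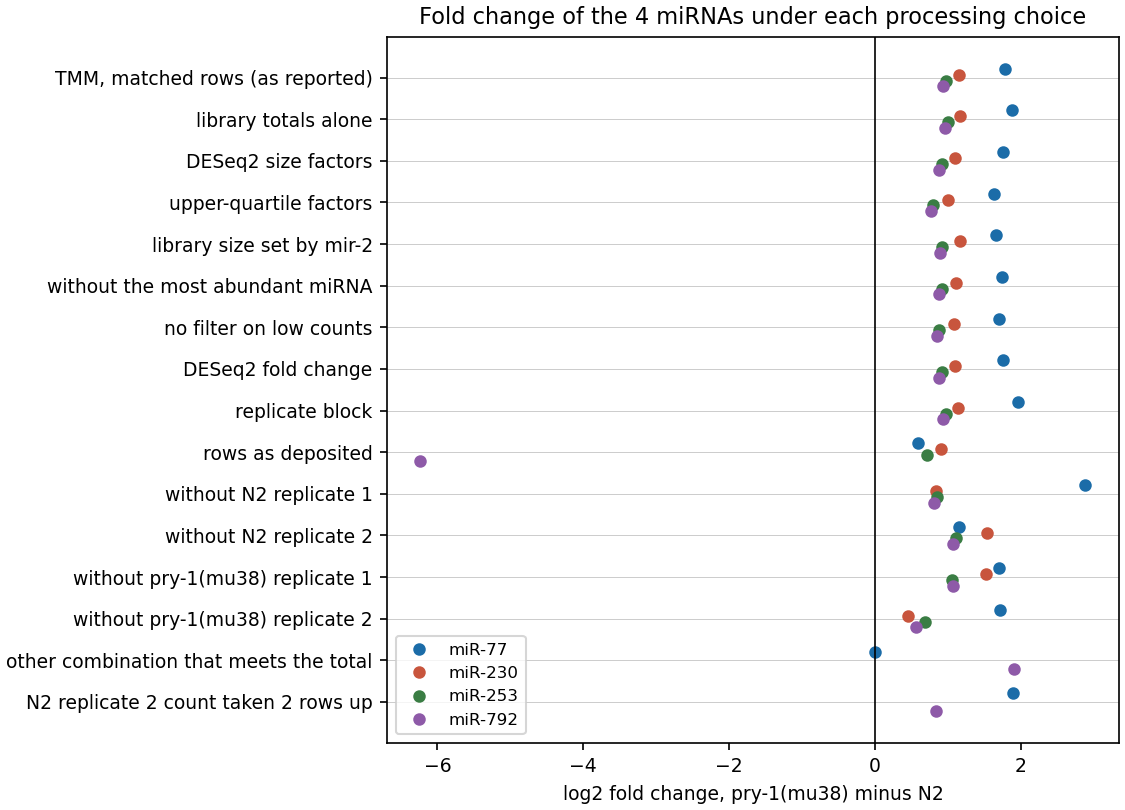
Fitted log2 difference, *pry-1(mu38)* minus N2, for the 4 miRNAs (colors) under each processing choice, with a line at 0. The values of a miRNA lie close together under the scalings of the matched rows and spread with the library left out and with the placement of the counts, down to -6.23 for *miR-792* in the rows as deposited.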

How the data were processed

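The deposited table holds counts of reads per miRNA in each library, which the authors had not normalized. The paper reports sequences that aligned perfectly to the genome. The counts of the 4 libraries together exceed the number it gives for them, so whether only such reads were counted is not known here. The paper describes matches of known miRNAs to the precursors in miRBase, and miRDeep2 for the discovery of new miRNAs. The submitters' processing notes also name BWA and DESeq. Tool versions, and what was done with reads shared by several miRNAs, are not given in the sources used here. Counts were placed by the read totals of the study's miRNA list, with N2 replicate 1 fixed and the other columns sought up to 3 rows away. Displaced matches needed a total of at least 1000 reads met by a single combination, with no sum within 10 reads of it, or a displacement shared with a checked neighbour, or with the next miRNA where both had at least 100 reads. Sums within 0.1% were accepted at a neighbour's displacement. The list's totals were used for placement alone. Positions of genes were read from the WBcel235 annotation of Ensembl.

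Fold changes were fitted with edgeR 4.0.16 in R 4.3.3 (TMM, filterByExpr with a minimum of 10 counts, glmQLFit, all 4 libraries, no covariates). The standard error is the log2 fold change divided by the square root of F. The scripts were tested on simulated data. The 4 miRNAs and all lists were chosen with earlier results of these data known. The miRNAs named are these 4, the 2 most like each, those sharing a seed or lying within 10 kb, miRNAs of larval and embryonic stages, and those at least 2-fold higher with separate groups, and the miRNAs at the threshold were chosen after their values were seen. Alternatives changed the scaling, the filter, the tool (DESeq2 1.42.0), the replicate block, the placement and the libraries included, and 5 alternatives were added after seeing the data. Depth limits *miR-77* and *miR-792* most. Each of the 4 count columns belonged to a library.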

Additional observations from a re-analysis of the deposited data

How the results depend on the processing

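Of 36 values of the 4 miRNAs under the alternatives set at the start, those without one library aside, 32 moved by less than the spread between replicates, 3 moved by more and 1 reversed. In the rows as deposited, the log2 fold change was 0.60 for *miR-77*, 0.72 for *miR-253* and -6.23 for *miR-792*. The N2 replicate 2 counts of *miR-77* and *miR-792* differed from the matched ones there. The counts of *miR-253* and *miR-230* were the same, but the libraries were scaled over 208 rows. For *miR-230* the log2 fold change was 0.91, but the groups overlapped, with *pry-1(mu38)* replicate 1 at 545 CPM and N2 replicate 2 at 564 CPM. *miR-77* and *miR-253* kept both mutant libraries above both N2 libraries there. With upper-quartile factors it was 0.80 for *miR-253*. With the other combination that met the total, chosen after seeing the data, it was -0.000416 for *miR-77* and 1.91 for *miR-792*.

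Without one library in turn, and with the TMM factors estimated anew each time, *miR-77* lay between log2 fold changes of 1.15 and 2.89. Both extremes came from leaving out an N2 library. The values went from 0.46 to 1.54 for *miR-230*, from 0.69 to 1.11 for *miR-253* and from 0.56 to 1.08 for *miR-792*. The lowest values of the last 3 were those without *pry-1(mu38)* replicate 2. These fits gave values without a test. miRNAs with both mutant libraries above both N2 libraries numbered 12 with upper-quartile factors, 15 when *miR-2* set the library sizes and 15 without a filter, against 23 of 86 with TMM, and 30 of 208 rows as deposited. The cause of these changes was not tested.

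No label ties equally numbered libraries to a shared culture or day, and deviations of equally numbered libraries correlated at 0.299 over 85 miRNAs. With the replicate block the log2 fold change was 1.97 for *miR-77*, 1.14 for *miR-230*, 0.98 for *miR-253* and 0.93 for *miR-792*.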
